A study of Mus musculus with 12 samples.

Results

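The genes of this report are 10 components of the cascade that carries a dopamine signal inside striatal neurons. They encode the G protein subunits Gαolf (Gnal) and Gγ7 (Gng7), adenylyl cyclase 5 (Adcy5), 3 subunits of protein kinase A (PKA: Prkaca, Prkar1b and Prkar2b), DARPP-32 (Ppp1r1b), the phosphoproteins ARPP-19 (Arpp19) and ARPP-21 (Arpp21), and the tyrosine phosphatase STEP (Ptpn5). They were chosen by their symbols, and all 10 were found among the 52169 gene symbols of the deposited table. Together they have 141 of its 189660 transcripts. Each gene was followed by its transcript with the highest mean level in CPM (counts scaled by the total of the library), and all 10 passed the filter on low counts in every comparison.

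RNA came from striatal punches of C57BL/6J mice in which 6-OHDA, a toxin taken up by dopamine neurons, had been infused into the right medial forebrain bundle after desipramine had been given to protect noradrenergic neurons. The toxin removes the dopamine input of that hemisphere, which is called lesioned here. The opposite striatum is called unlesioned. All mice were given L-DOPA (10 mg/kg) with benserazide (7.5 mg/kg), an inhibitor of the enzyme that would turn it into dopamine outside the brain, either once (acute) or daily for 9 days (chronic), and were killed 1 hour after the last injection. There were thus 4 groups of 3 libraries (acute unlesioned, acute lesioned, chronic unlesioned, chronic lesioned), and none of them came from animals without L-DOPA. Any difference between the hemispheres therefore holds the lesion and the response to L-DOPA together.

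In medium spiny neurons, the principal cells of the striatum, the dopamine D1 receptor acts through Gαolf, together with Gβ subunits and Gγ7, on adenylyl cyclase 5. The cyclic AMP that this enzyme makes releases the catalytic subunits of PKA from their regulatory subunits. PKA phosphorylates DARPP-32 on a threonine that turns it into an inhibitor of protein phosphatase 1, whereas Cdk5 phosphorylates another threonine, which makes DARPP-32 an inhibitor of PKA. In neurons with D2 receptors the same cyclase is inhibited by dopamine and stimulated by adenosine receptors. ARPP-19, ARPP-21, STEP and the regulatory subunit RIIβ are also substrates of PKA.

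The phosphorylation sites on which this cascade turns can be read in the coding sequences. The stretch of Ppp1r1b below runs from codon 27 to codon 80 of 194, and its capitals mark codon 34, the threonine phosphorylated by PKA (chr11:98211901-98211903 in NCBIM37, plus strand, exon 2 of 7), and codon 75, the threonine phosphorylated by Cdk5 (chr11:98212637-98212639, exon 4). The stretch of Arpp19 runs from codon 94 to codon 112, the last one, with the PKA site at serine codon 104 in capitals (chr9:74904583-74904585, plus strand, exon 3 of 3). The stretch of Prkar2b runs from codon 103 to codon 121 of 416, and its capitals mark serine codon 112, the site in the inhibitory segment of RIIβ (chr12:32723488-32723490, minus strand, exon 2 of 11). The stretches were taken from GENCODE vM1 transcripts (ENSMUST00000078694, ENSMUST00000007800 and ENSMUST00000036497, in this order).
Ppp1r1b: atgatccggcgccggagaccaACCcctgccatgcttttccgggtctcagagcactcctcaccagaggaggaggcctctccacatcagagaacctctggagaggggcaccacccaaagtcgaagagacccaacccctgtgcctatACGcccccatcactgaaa
Arpp19: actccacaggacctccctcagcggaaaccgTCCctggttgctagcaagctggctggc
Prkar2b: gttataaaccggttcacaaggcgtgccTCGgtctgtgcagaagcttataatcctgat

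The libraries held between 87695043 and 173116525 counts over all transcripts, where a read is counted on every transcript it overlaps. The least counted of the 10 genes, Prkar2b, had at least 1969 counts in each library. CPM values below were computed after TMM scaling, and errors are SD over 3 libraries unless stated. The tissue was checked by marker lists: all 7 markers shared by spiny neurons were detected in every group, and their summed level was between 787 and 1256 CPM. One library, chronic unlesioned replicate 2, held RNA of choroid plexus markers at 464 CPM in sum, against 0.484 to 3.00 CPM in the other libraries. Chronic lesioned replicate 2 had the lowest level of its group for 8 of the 10 genes, the lowest sum of spiny neuron markers in that group (787 against 991 and 1062 CPM) and the highest sum of oligodendrocyte markers (1966 against 1103 and 1290 CPM). In bulk tissue, fewer cells of a type and less RNA per cell cannot be told apart.

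Ppp1r1b was the most abundant of the 10 mRNAs. Scaled to transcript length, its level was 257 ± 36.4 CPM per kilobase (SD, n = 12 libraries), Gng7 (100.1 ± 13.5) and Arpp21 (91.8 ± 9.10) came next, and Ptpn5, Adcy5, Gnal and Arpp19 lay between 36.7 and 45.3. The PKA subunits were lowest, with Prkar1b at 29.4 ± 3.79, Prkaca at 13.8 ± 1.21 and Prkar2b at 8.60 ± 1.23 CPM per kilobase. Between neighbours in this order, the ranges over the libraries did not overlap for Ppp1r1b and Gng7, for Arpp21 and Ptpn5, for Prkar1b and Prkaca, or for Prkaca and Prkar2b, and they overlapped for the other neighbours. Gnal and Arpp19 were the least separable, with Gnal higher in 7 of 12 libraries.

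**Figure D1:**
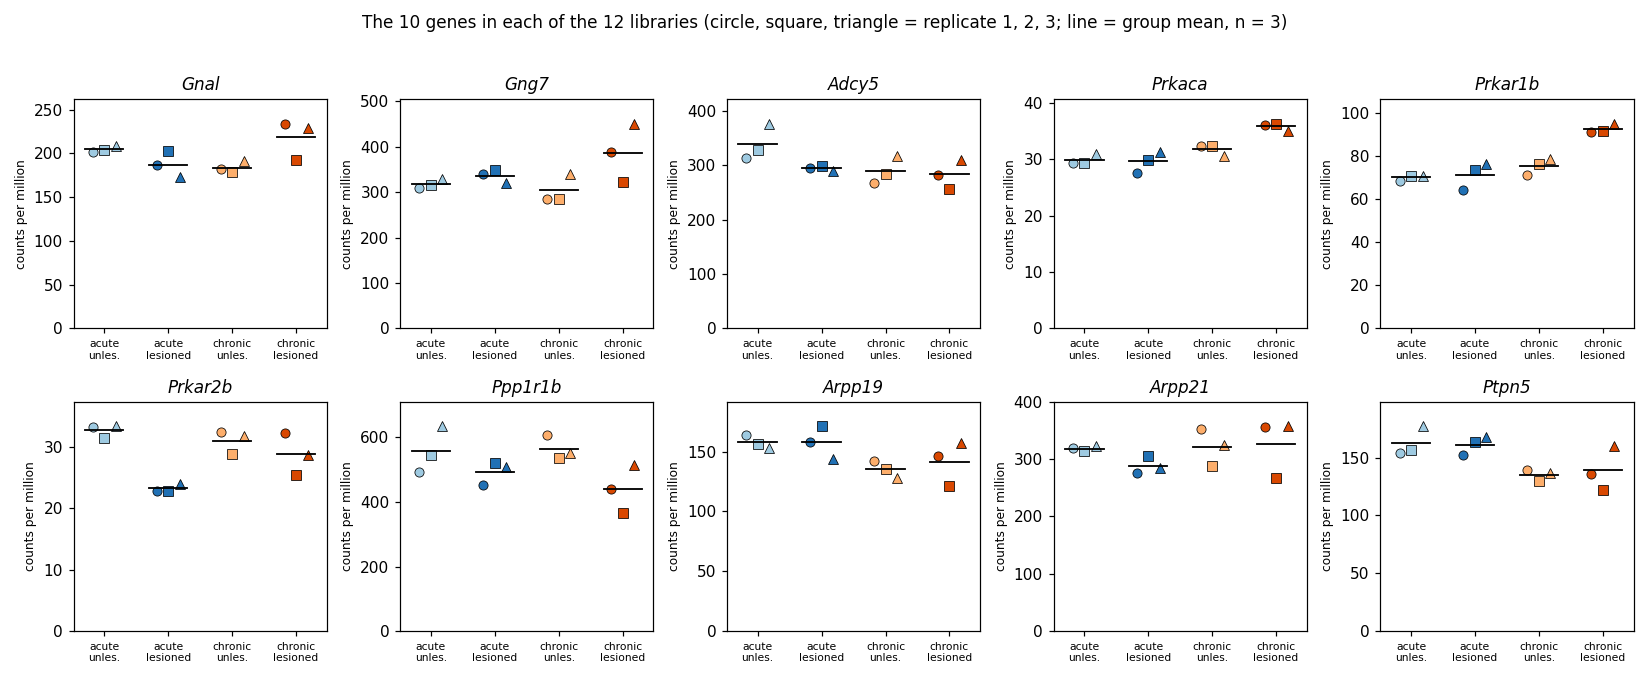
Level of each of the 10 genes (y axis, CPM from 0) in the 12 libraries, by group (x axis). Symbols stand for replicates 1, 2 and 3 and the line for the group mean. Prkar2b is lower in all 3 acute lesioned libraries, and Prkar1b is highest in the 3 chronic lesioned libraries.

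After acute L-DOPA, 1 of the 10 genes changed between the hemispheres: Prkar2b, the regulatory subunit RIIβ, fell in the lesioned striatum. The other 9 did not pass the test, among them Ppp1r1b, Gnal and Adcy5, whose fitted values were all negative. The median of the 10 log2 fold changes was -0.06, against 0.02 over all genes tested by their chosen transcript and -0.0079 over the 1303 genes with a mean level at or above that of Prkar2b. Calls were made at an adjusted p under 0.05 (edgeR quasi-likelihood test, Benjamini-Hochberg adjustment over all transcripts). By this rule 15.3% of 20402 genes were called, and 26.2% of those 1303 genes, so that 1 of 10 is no more than the background. The groups did not overlap for 3 of the 10 genes (Prkar2b, Adcy5, Arpp21), beside 35.1% of all genes. An exact permutation test of 3 against 3 libraries cannot go below p = 0.1, so single genes were tested in the fit across all transcripts.

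After chronic L-DOPA, 1 of the 10 genes passed the same test: Prkar1b, the neuronal regulatory subunit RIβ, rose in the lesioned striatum. Over all genes 13.7% of 19742 were called, and 28.5% of the 1303 genes at this level. Lesioned and unlesioned libraries with the same replicate number deviated together, with correlations across genes of 0.38 to 0.50 (acute) and 0.16 to 0.57 (chronic). The lowest, 0.16 for chronic replicate 3, was close to the 0.15 between chronic lesioned replicate 1 and chronic unlesioned replicate 3, whose numbers differ. Once the replicate number entered the fit as a block, 4 of the 10 were called for the chronic comparison: Gnal, Gng7 and Prkar1b rose and Ppp1r1b fell. The blocked fit called 24.2% of all genes and 48.4% of those at this level, so that 4 of 10 is within its background. The groups did not overlap for 4 genes (Gnal, Prkaca, Prkar1b, Ppp1r1b), beside 32.1% of all genes. The median log2 fold change of the 10 was 0.06, against -0.01 over all genes and 0.03 over those at this level.

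The 2 treatments were then compared within a hemisphere, using the same libraries again, so these results are not independent of those above. In the lesioned striatum, chronic L-DOPA was compared with acute L-DOPA, and the 3 genes that changed were the 3 PKA subunits, Prkaca, Prkar1b and Prkar2b, all of which rose. This comparison had the largest background of the 5, with 25.6% of 19790 genes called and 42.7% of the 1303 genes at this level, so that 3 of 10 is again within it. Which genes were called depended on single libraries: the count was 1 without acute lesioned replicate 1, acute lesioned replicate 2 or chronic lesioned replicate 1, and 6 without chronic lesioned replicate 2, when Gnal, Gng7 and Arpp21 were called as well. The share of all genes called in these fits is not given here, so these counts cannot be set against a background. The groups did not overlap for the same 3 genes, beside 41.9% of all genes. The median of the 10 was 0.19, against -0.02 over all genes and 0.05 over those at this level.

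In the unlesioned striatum, none of the 10 genes was called between chronic and acute L-DOPA by edgeR, where 3.07% of 20290 genes and 5.6% of the 1303 genes at this level were. At an unadjusted p under 0.05 there were 4 of the 10 (Gnal, Adcy5, Arpp19 and Ptpn5, all with negative values), beside 22.8% of all genes and 29.2% of those at this level. DESeq2 called 1, Ptpn5, beside 7.0% of the 16532 genes to which it gave an adjusted p and 12.7% of those at this level. The groups did not overlap for 4 genes (Gnal, Prkar1b, Arpp19, Ptpn5), beside 26.6% of all genes, and the median was -0.07, against -0.0043 over all genes and -0.01 over those at this level.

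**Figure D2:**
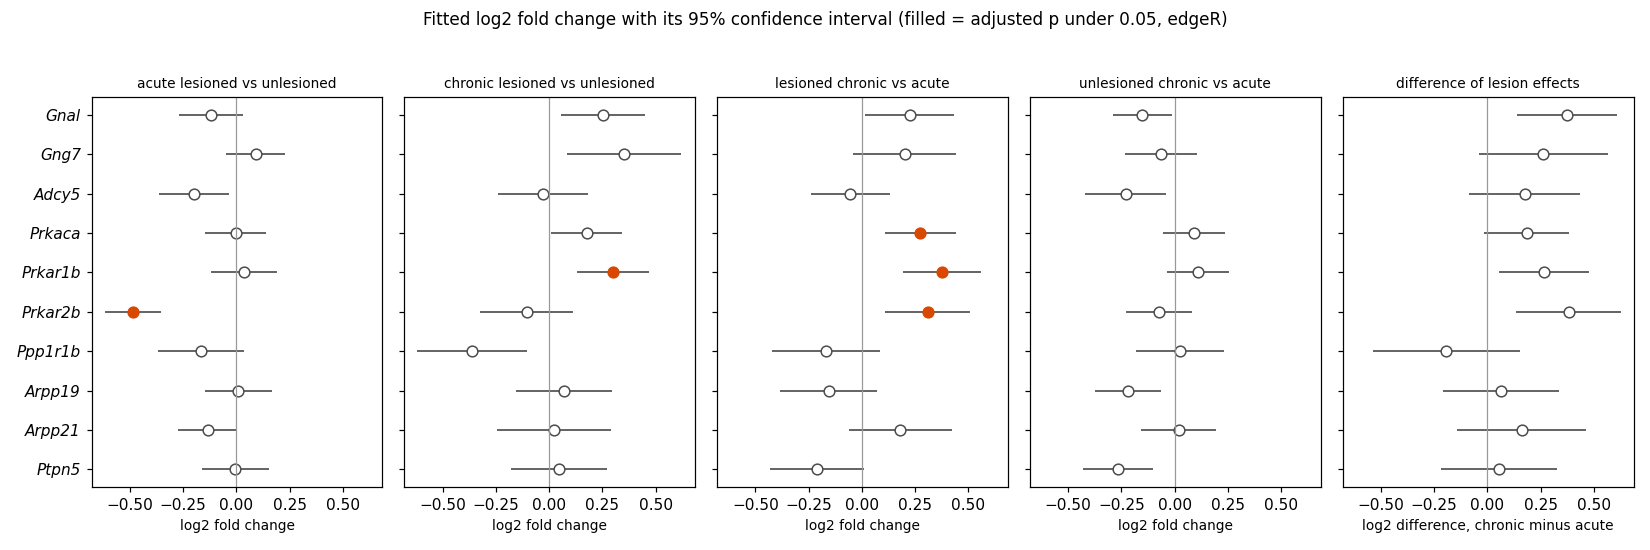
Fitted log2 fold change of the 10 genes (x axis) in the 5 comparisons, with 95% confidence intervals as lines. Filled points have an adjusted p under 0.05: Prkar2b after acute L-DOPA, Prkar1b after chronic L-DOPA, and Prkaca, Prkar1b and Prkar2b in the lesioned striatum between the treatments.

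Gnal encodes Gαolf, the stimulatory α subunit that takes the place of Gαs in most striatal neurons. After acute L-DOPA it was at 202, 204 and 208 CPM in the unlesioned libraries and at 186, 202 and 173 CPM in the lesioned ones. After chronic L-DOPA it was at 182, 179 and 191 CPM in the unlesioned and at 234, 193 and 229 CPM in the lesioned libraries. The lesioned libraries thus overlapped the unlesioned ones through replicate 2 after acute treatment, and lay above all of them after chronic treatment. The log2 fold change was -0.12 ± 0.07 (SE, adjusted p = 0.267, edgeR) after acute and 0.25 ± 0.09 (adjusted p = 0.0939) after chronic L-DOPA. In the blocked fit the chronic value was 0.25 ± 0.06 and passed the test (adjusted p = 0.0137), and without chronic lesioned replicate 2 it was 0.34 ± 0.08 (adjusted p = 0.0211). The 3′ end of Gnal (NM_010307, chr18:67293480-67386446, plus strand) overlaps that of Mppe1 on the other strand, which was at 15.4 CPM.

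Gng7 encodes Gγ7, the γ subunit found with Gαolf in the striatum. Its unlesioned libraries were at 310.4, 315 and 329 CPM after acute and at 286.0, 285.9 and 339.8 CPM after chronic L-DOPA. Its lesioned libraries were at 339.5, 350.0 and 320.6 CPM after acute and at 388, 322 and 451 CPM after chronic L-DOPA. Groups overlapped in both cases, through acute lesioned replicate 3 and chronic lesioned replicate 2. The log2 fold change was 0.09 ± 0.06 after acute (adjusted p = 0.365) and 0.35 ± 0.12 after chronic L-DOPA (adjusted p = 0.0875, edgeR). The blocked fit gave 0.34 ± 0.06 for the chronic comparison, past the threshold (adjusted p = 0.00249), and DESeq2 called it too (adjusted p = 0.0313). Without chronic lesioned replicate 2, Gng7 was called in the chronic comparison (0.47 ± 0.10, adjusted p = 0.0116) and between the treatments in the lesioned striatum (0.31 ± 0.09, adjusted p = 0.0168).

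Adcy5, the main adenylyl cyclase of spiny neurons, was at 314 to 376 CPM in the acute unlesioned and at 288 to 298 CPM in the acute lesioned libraries, with no overlap. The log2 fold change was -0.20 ± 0.07 and did not pass the test (adjusted p = 0.0953, edgeR), with a 95% interval from -0.36 to -0.04. After chronic L-DOPA the hemispheres overlapped (267 to 316 and 256 to 310.2 CPM) and the value was -0.03 ± 0.09, with an interval from -0.23 to 0.18. Among its 10 transcripts, 4 were called lower after acute L-DOPA, at log2 fold changes down to -0.24, beside 12.9% of all transcripts. They overlap the chosen one, and a read is counted on each model it overlaps, so they are not separate evidence.

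Prkar2b encodes RIIβ, the regulatory subunit that holds PKA at AKAP anchors on membranes of neurons and fat cells. It was at 33.2, 31.4 and 33.3 CPM in the acute unlesioned libraries and at 22.8, 22.8 and 24.0 CPM in the acute lesioned ones. After chronic L-DOPA it was at 32.3, 28.7 and 31.8 CPM in the unlesioned and at 32.2, 25.4 and 28.7 CPM in the lesioned libraries. The 3 acute lesioned libraries were the lowest of all 12, and the chronic groups overlapped. The acute log2 fold change was -0.49 ± 0.06 (adjusted p = 0.000207, edgeR), from a group mean of 32.7 ± 1.04 to one of 23.2 ± 0.698 CPM (n = 3 each). It was called in all 14 alternatives, from -0.51 to -0.46. All 8 of its transcripts fell, beside 12.9% of all transcripts called, but their models overlap the chosen one and so are not separate evidence. After chronic L-DOPA the value was -0.11 ± 0.10 (adjusted p = 0.546), with an interval from -0.32 to 0.11.

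Between the treatments, the lesioned side rose by 0.31 ± 0.09 (adjusted p = 0.0289), a call lost when any one of 4 libraries was left out (acute lesioned replicate 1 or 2, chronic lesioned replicate 1 or 3, with values from 0.22 to 0.31). The unlesioned side gave -0.07 ± 0.07. All 7 markers shared by spiny neurons also fell after acute L-DOPA, by log2 values from -0.48 (Pde10a) to -0.32, and their sum was 836 to 931 CPM in the lesioned against 1087 to 1256 CPM in the unlesioned libraries. Of the 5 D2 spiny neuron markers 4 rose and 1 fell, and of the 6 D1 markers 1 rose and 5 fell. The part of these shifts in the level of Prkar2b was not tested.

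Prkar1b encodes RIβ, the form of the type I regulatory subunit that is found mainly in neurons. Its libraries were at 68.2, 70.8 and 70.9 CPM (acute unlesioned), 64.3, 73.6 and 76.1 CPM (acute lesioned), 71.2, 76.5 and 78.3 CPM (chronic unlesioned) and 91.0, 91.8 and 94.9 CPM (chronic lesioned). The chronic lesioned libraries were the 3 highest of the 12 and close to each other. The log2 fold change after chronic L-DOPA was 0.30 ± 0.07 (adjusted p = 0.0259, edgeR), against 0.04 ± 0.07 after acute L-DOPA (adjusted p = 0.779). On the lesioned side the chronic libraries exceeded the acute ones by 0.38 ± 0.08 (adjusted p = 0.00798), called in all 13 alternatives. The call between the hemispheres was lost without any one of 4 chronic libraries (lesioned replicate 1 or 3, unlesioned replicate 1 or 3, with adjusted p from 0.0558 to 0.108 and values from 0.26 to 0.32). Of its 13 tested transcripts, most of whose models overlap the chosen one and so are not separate evidence, 11 rose in each of these 2 comparisons, beside 12.0% and 23.3% of all transcripts.

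Prkaca, the catalytic subunit Cα, was at 29.4, 29.3 and 30.9 CPM in the acute unlesioned, 27.6, 29.9 and 31.3 CPM in the acute lesioned, 32.3, 32.4 and 30.5 CPM in the chronic unlesioned and 36.1, 36.3 and 35.0 CPM in the chronic lesioned libraries. As for Prkar1b, the 3 chronic lesioned libraries were the highest. In the lesioned striatum the rise from acute to chronic L-DOPA was 0.27 ± 0.07 (adjusted p = 0.0226, edgeR). The call was lost without acute lesioned replicate 1 (0.23), acute lesioned replicate 2 (0.28) or chronic lesioned replicate 1 (0.27). Between the chronic hemispheres the value was 0.18 ± 0.07 and did not pass the test (adjusted p = 0.159), and after acute L-DOPA it was -0.004 ± 0.06.

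The remaining PKA subunits were added after their values were seen, and differences between the subunits were not tested. Prkacb, the catalytic subunit Cβ, was at 112 to 125 CPM in 9 libraries and at 169, 139 and 146 CPM in the chronic lesioned ones, and rose by 0.38 ± 0.09 between the chronic hemispheres (adjusted p = 0.0186, edgeR) and by 0.38 ± 0.09 between the treatments in the lesioned striatum (adjusted p = 0.0110). Prkar1a, the ubiquitous subunit RIα, did not pass the test in any of the 5 comparisons, with values from -0.07 to 0.17. Its chronic lesioned libraries (132 to 140 CPM) nevertheless lay above the chronic unlesioned ones (119 to 125 CPM). Prkar2a, the subunit RIIα, was at 7.56 to 11.1 CPM and was not called either, with means of 10.2 CPM in the chronic lesioned and 8.75 CPM in the chronic unlesioned group.

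Markers of several cell types moved with the rise of the kinase subunits between the treatments. All 5 oligodendrocyte markers fell in the lesioned striatum, by log2 values from -0.90 to -0.72, and their sum was 1997 to 3333 CPM after acute and 1103 to 1966 CPM after chronic L-DOPA. Of the 7 markers shared by spiny neurons 1 was called, Pde10a, which rose. Their values were positive for 5 and negative for 2, with a median of 0.20. At an unadjusted p under 0.05 (edgeR) there were 5 of the 7, with Rasd2 lower and the others higher, beside 7742 of 19790 genes. Of the D1 markers 5 of 6 rose. Of the other lists, 3 of 5 microglial, 2 of 3 cholinergic, 3 of 5 D2, 1 of 4 astrocyte and 1 of 6 tested cortical markers fell, 1 of 3 choroid plexus markers rose, and none of 3 endothelial markers was called. The part of these shifts in the kinase subunits was not tested.

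**Figure D3:**
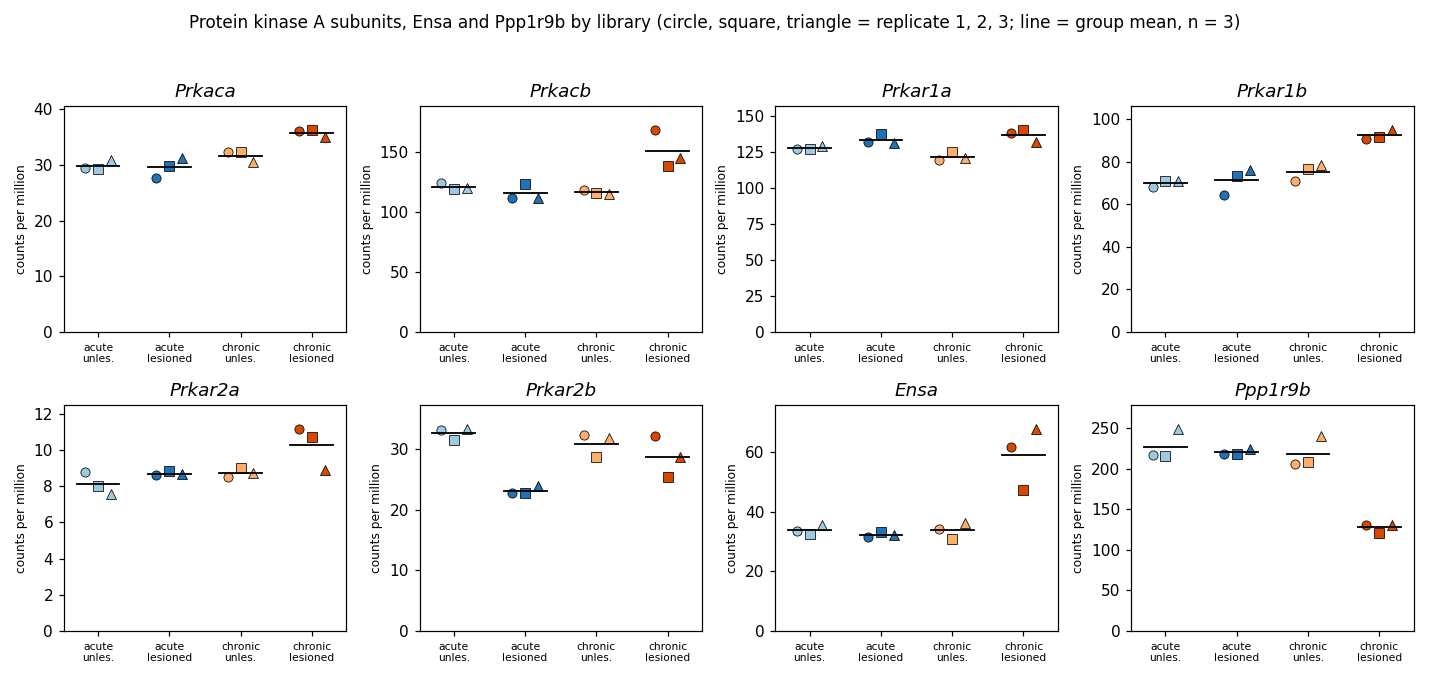
Level in CPM (y axis from 0) of the PKA subunits and of Ensa and Ppp1r9b in each library by group, with the group mean as a line. Prkaca, Prkacb and Prkar1b are highest in the chronic lesioned libraries, Prkar2b is lowest in the acute lesioned ones, and Ppp1r9b is lowest in the chronic lesioned ones.

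The 3 kinase subunits rose together in the lesioned striatum between the treatments, so the 250 bases before the start of their chosen transcripts are given here from NCBIM37, and capitals mark matches to the letters searched. These were TGACGTCA (the full cyclic AMP response element, the same on both strands), the shorter TGACG or CGTCA, which the full element also holds, the GC box GGGCGG or CCGCCC, and the TATA box TATAAA or TTTATA, on both strands. The windows lie at chr8:86496627-86496876 (Prkaca, plus strand), chr5:139605707-139605956 (Prkar1b, minus strand) and chr12:32746145-32746394 (Prkar2b, minus strand). None of the 10 genes had the full element in this window, which 2.18% of the windows of 20899 genes held. The shorter element was present for 1 of the 10, Prkaca, with matches that begin 120 and 6 bases before the start, and for 21.8% of all windows. The GC box was present for 6 of the 10, the 3 printed genes among them, and for 46.2% of all windows. The TATA box was present for none of the 10 and for 8.92% of all windows.
Prkaca: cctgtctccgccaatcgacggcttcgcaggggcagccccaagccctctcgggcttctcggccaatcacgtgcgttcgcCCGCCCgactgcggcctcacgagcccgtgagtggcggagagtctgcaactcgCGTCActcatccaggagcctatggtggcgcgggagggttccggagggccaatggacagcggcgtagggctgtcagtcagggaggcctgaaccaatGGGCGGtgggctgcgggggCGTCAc
Prkar1b: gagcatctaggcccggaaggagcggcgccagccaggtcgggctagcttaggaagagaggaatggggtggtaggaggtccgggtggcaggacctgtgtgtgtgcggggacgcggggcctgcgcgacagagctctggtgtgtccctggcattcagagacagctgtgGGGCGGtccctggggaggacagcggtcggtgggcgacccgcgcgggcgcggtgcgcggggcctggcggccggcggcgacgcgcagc
Prkar2b: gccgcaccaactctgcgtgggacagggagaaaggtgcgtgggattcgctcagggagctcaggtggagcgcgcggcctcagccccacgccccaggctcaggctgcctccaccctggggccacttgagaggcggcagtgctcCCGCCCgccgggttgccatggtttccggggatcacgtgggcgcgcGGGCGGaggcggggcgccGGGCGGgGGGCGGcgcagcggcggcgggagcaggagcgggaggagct

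Ppp1r1b encodes DARPP-32, the point at which PKA and protein phosphatase 1 meet in spiny neurons. It was at 494, 545 and 634 CPM in the acute unlesioned and at 453, 519 and 509 CPM in the acute lesioned libraries. After chronic L-DOPA it was at 609, 537 and 550.4 CPM in the unlesioned and at 441, 364 and 514 CPM in the lesioned libraries. The acute groups overlapped, and the chronic lesioned libraries all lay below the chronic unlesioned ones. The log2 fold change was -0.17 ± 0.09 after acute (adjusted p = 0.256, edgeR) and -0.36 ± 0.12 after chronic L-DOPA, which missed the threshold (adjusted p = 0.0697, interval from -0.62 to -0.11). With the replicate number as a block the chronic fall was -0.37 ± 0.08 and was called (adjusted p = 0.00588), as it was by DESeq2 (adjusted p = 0.0273). Without chronic lesioned replicate 2 the value was -0.24 ± 0.10 and was not called (adjusted p = 0.144), and over 14 alternatives it ran from -0.48 to -0.24 with 5 calls. The difference between the 2 lesion effects was -0.19 ± 0.16 (adjusted p = 0.553), so the chronic value was not shown to exceed the acute one. In the unlesioned striatum the treatments gave 0.02 ± 0.09.

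All 8 transcripts of Ppp1r1b gave alike chronic values, from -0.37 to -0.36, and none was called. They include 2 shorter models whose coding sequence of 158 codons begins at codon 37 of the long form, after the PKA site printed above and before the Cdk5 site. Their level was 381 and 379 CPM on average, against 514 CPM for the chosen model, and since a read is counted on every model it overlaps, the forms cannot be separated here. The antisense gene 1700003D09Rik (chr11:98212032-98219597, minus strand, 46.0 CPM) covers most of Ppp1r1b. Without knowledge of the strand, reads of the pair cannot be told apart.

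The genes whose log2 CPM followed that of Ppp1r1b most closely over the 12 libraries, among 12794 genes with a mean of at least 1 CPM, were 1700003D09Rik (Pearson r = 0.976), Smarcd1 (0.953), Itpka (0.945), Sfxn3 (0.939) and Rasd2 (0.933). Reads of the antisense gene cannot be told apart from those of Ppp1r1b, and Rasd2 is 1 of the markers shared by spiny neurons. The values are descriptions, since the libraries fall into 4 groups and share their differences in depth and composition. None of the other 9 genes was near these values: the closest was Adcy5 (0.597), and Prkar1b was at the other end (-0.461).

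Arpp19 encodes ARPP-19, which inhibits protein phosphatase 2A after phosphorylation by Greatwall and is also a PKA substrate at the serine shown above. It was at 144 to 171 CPM after acute and at 121 to 157 CPM after chronic L-DOPA on the lesioned side, and the hemispheres overlapped under both treatments. Its log2 fold change was 0.01 ± 0.07 after acute (interval from -0.14 to 0.16) and 0.07 ± 0.10 after chronic L-DOPA (interval from -0.15 to 0.29). In the unlesioned striatum its libraries did not overlap between the treatments (153 to 164 after acute against 128 to 142 CPM after chronic), with a value of -0.22 ± 0.07 that was not called (adjusted p = 0.102, edgeR).

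Arpp21 encodes ARPP-21, also called RCS, a PKA substrate that binds calmodulin when phosphorylated. Its chosen transcript is a short one of 5 exons (NM_001177615, chr9:112082536-112090430) at 314 CPM on average, while a long transcript of 21 exons (ENSMUST00000162097) was at 74.6 CPM. It was at 315 to 322 CPM in the acute unlesioned and at 276 to 305 CPM in the acute lesioned libraries, without overlap, and the fitted value of -0.13 ± 0.06 was not called (adjusted p = 0.176). The chronic hemispheres overlapped (287 to 353 and 268 to 357 CPM), with a value of 0.02 ± 0.12. Without chronic lesioned replicate 2 it was called between the treatments in the lesioned striatum, with the higher level after chronic L-DOPA (0.30 ± 0.08, adjusted p = 0.0124, edgeR), against 0.18 ± 0.11 with it (adjusted p = 0.25). Of its 51 tested transcripts, 10 were called lower after acute L-DOPA and 10 were called higher for chronic than for acute treatment on the lesioned side, beside 12.9% and 23.3% of all transcripts. One of the long ones, picked after its values were seen, is NM_001177618 at 46.6 CPM, with -0.21 (adjusted p = 0.0337) and 0.29 (adjusted p = 0.0428) in these comparisons.

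Ptpn5 encodes STEP, which dephosphorylates Erk and NMDA receptor subunits and is switched off by PKA. It was at 154, 157 and 177 CPM (acute unlesioned), 152, 163 and 168 CPM (acute lesioned), 139, 129 and 136 CPM (chronic unlesioned) and 136, 122 and 159.9 CPM (chronic lesioned). The hemispheres overlapped under both treatments, and the values were -0.0048 ± 0.07 after acute and 0.05 ± 0.10 after chronic L-DOPA (edgeR, adjusted p = 0.975 and 0.821). Between the treatments, the unlesioned libraries did not overlap and gave -0.27 ± 0.07 (adjusted p = 0.0730), called by DESeq2 (adjusted p = 0.0211). The lesioned libraries overlapped and gave -0.21 ± 0.10 (adjusted p = 0.145), which was called without chronic lesioned replicate 3 (-0.32 ± 0.09, adjusted p = 0.0351).

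Some transcripts at the 5′ end of Ptpn5 did not follow the chosen one. ENSMUST00000149785 (chr7:54368089-54388786, minus strand, 4 exons) was at 1.53, 1.89 and 2.14 CPM in the chronic lesioned and at 3.01, 2.69 and 3.22 CPM in the chronic unlesioned libraries, from 134 to 477 counts, and the groups did not overlap. Its log2 fold change was -0.67 (adjusted p = 0.00961, edgeR), and ENSMUST00000137722, which shares most of its reads, gave -0.65 (adjusted p = 0.0126). These 2 were called of 15 transcripts tested, beside 12.0% of all transcripts, and were picked after their values were seen. Against the acute lesioned libraries (3.13, 3.39 and 3.47 CPM) ENSMUST00000149785 fell by 0.83 on the log2 scale as well (adjusted p = 0.00123). Their mean levels over the 12 libraries, 2.93 and 2.66 CPM, are small beside the 149 CPM of the chosen transcript.

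The difference between the chronic and the acute lesion effect was tested as an interaction, and none of the 10 genes was called by edgeR, where 5.1% of 20682 genes and 13.6% of the 1303 genes at this level were. At an unadjusted p under 0.05 there were 3 (Gnal, Prkar1b and Prkar2b), beside 20.4% of all genes and 37.6% of those at this level. DESeq2 called 2 (Gnal and Prkar2b), beside 8.83% and 20.0%. Gnal came to 0.37 ± 0.11 (adjusted p = 0.0652), Prkar2b to 0.38 ± 0.11 (adjusted p = 0.0721) and Prkar1b to 0.27 ± 0.10 (adjusted p = 0.147). The median over the 10 was 0.18, against -0.03 over all genes and 0.06 over those at this level. With the replicate numbers as a block, these 3 genes were called: Gnal at 0.37 ± 0.09 (adjusted p = 0.0168), Prkar2b at 0.38 ± 0.08 (adjusted p = 0.00607) and Prkar1b at 0.27 ± 0.08 (adjusted p = 0.0375). The blocked fit called 13.4% of all genes and 30.6% of those at this level. Without chronic lesioned replicate 2 and without the block, Gnal and Prkar2b were called (adjusted p = 0.0101 and 0.0136), beside 7.84% of all genes and 20.4% of those at this level.

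The cascade also holds receptors, other G proteins, cyclases, kinase anchors and phosphatases, and a list of 62 such genes, of which 61 were in the table and tested, was read in the same fits. After acute L-DOPA 9 of the 61 rose and 14 fell, beside 15.3% called over all genes and 26.2% of the 1303 genes at the level of the 10, a level that part of the list does not reach, and the median was -0.02. The count of 23 fell to 13 without acute unlesioned replicate 2 and to 14 without acute unlesioned replicate 3. All 6 receptors changed, and the same 6 genes stand in the lists of D1 and D2 spiny neuron markers, so these counts are not separate. Drd1a, the D1 receptor, was at 69.1, 63.0 and 68.1 CPM in the unlesioned and at 11.2, 14.98 and 14.3 CPM in the lesioned libraries, without overlap, and fell by 2.30 on the log2 scale (SE 0.10, adjusted p = 1.36e-08, edgeR). Chrm4, the muscarinic M4 receptor of D1 neurons, fell by 1.74 (adjusted p = 2.41e-07). Drd2, the D2 receptor, which was added here after its values were seen, rose by 0.24 ± 0.07 (adjusted p = 0.0426).

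Among the genes of the G protein list, 3 of 14 rose and 3 fell, led by Gnai3, an inhibitory α subunit, at 6.41 to 7.64 CPM in the unlesioned and 15.8 to 16.9 CPM in the lesioned libraries (1.21 ± 0.07, adjusted p = 4.84e-07). In the list of kinase subunits, inhibitors and anchors none of 10 rose and 3 fell. Akap5, an anchor of PKA at synapses that binds RII subunits, went from 61.02 ± 4.40 to 36.0 ± 3.01 CPM (-0.75 ± 0.07, adjusted p = 4.58e-05). It also fell between the chronic hemispheres (-0.49 ± 0.14, adjusted p = 0.042), where Prkar2b was not called. In the list of phosphatases and kinases 1 of 21 rose and 3 fell, in the cyclases 1 of 7 rose and 1 fell, and in the other cAMP effectors 1 of 3 rose and 1 fell.

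After chronic L-DOPA 9 of the 61 rose and 8 fell, beside 13.7% over all genes and 28.5% of those 1303 genes, with a median of 0.03. The count of 17 fell to 11 without chronic lesioned replicate 1, chronic unlesioned replicate 1 or chronic unlesioned replicate 3. Drd1a was at 75.5, 65.8 and 69.1 CPM in the unlesioned and 29.3, 21.9 and 32.9 CPM in the lesioned libraries (-1.32 ± 0.13, adjusted p = 0.000101, edgeR), so it stayed below the unlesioned side. Drd2 overlapped (0.10 ± 0.10, adjusted p = 0.596). Gnai3 rose by 1.45 ± 0.09, and Gng4, a γ subunit, by 1.09 ± 0.13, from 3.35 to 4.24 CPM in the unlesioned to 6.63 to 8.75 CPM in the lesioned libraries. Akap12, a PKA anchor also called gravin, rose by 1.27 ± 0.18, from 1.86 to 3.38 CPM in the unlesioned to 6.11 to 7.35 CPM in the lesioned libraries. Its acute libraries varied more, from 3.32 to 17.2 CPM in the unlesioned and from 5.97 to 25.0 CPM in the lesioned ones. In the list of phosphatases and kinases 5 of 21 rose and 2 fell, in that of kinase subunits and anchors 2 of 10 rose and 1 fell, and among the receptors 3 of 6 fell and none rose.

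In the lesioned striatum 14 of the 61 were higher and 10 lower after chronic than after acute L-DOPA, beside 25.6% over all genes and 42.7% of those 1303 genes, and the count of 24 fell to 13 without chronic lesioned replicate 1. Drd1a (1.06 ± 0.14) and Chrm4 (0.99 ± 0.14) were among those that rose. Ppp1r2, which encodes inhibitor 2 of protein phosphatase 1, rose by 1.02 ± 0.13, from 25.4 to 29.2 CPM to 44.3 to 65.6 CPM (adjusted p = 0.00035, edgeR). On the unlesioned side Ppp1r2 gave 0.51 ± 0.14 between the treatments (adjusted p = 0.0829). Without the block, its lesion effect did not pass the test of a difference between them (0.51 ± 0.22, adjusted p = 0.224, edgeR). In replicates 1, 2 and 3 it was at 40.9, 24.8 and 37.3 CPM (chronic unlesioned) and 65.6, 44.3 and 60.3 CPM (chronic lesioned). The acute values were 23.1, 25.7 and 23.9 CPM (unlesioned) and 25.4, 29.1 and 29.2 CPM (lesioned). The blocked value of this difference is not given here. Ensa, the close relative of Arpp19 and likewise an inhibitor of protein phosphatase 2A, was at 31.5, 33.3 and 32.3 CPM after acute and at 61.8, 47.4 and 67.6 CPM after chronic L-DOPA (0.87 ± 0.11, adjusted p = 0.000462). Arpp19 itself gave -0.16 ± 0.10 in this comparison, so the relatives had values of opposite sign, a difference that was not tested. In the unlesioned striatum 2 of the 61 rose (Gng2 and Ppp1r9a) and 1 fell (Drd2), beside 3.07% and 5.6%. This count of 3 was 11 without chronic unlesioned replicate 2 and 0 without any one of the 5 other libraries.

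The lesion effect differed between the treatments for 7 of the 61 genes, 5 with a higher and 2 with a lower value after chronic L-DOPA, beside 5.1% over all genes and 13.6% of those 1303 genes. With the replicate block there were 19, beside 13.4% over all genes and 30.6% of those 1303, and without chronic lesioned replicate 2 there were 14, beside 7.84% and 20.4%. Chrm4 (1.15 ± 0.17) and Drd1a (0.98 ± 0.18) had the largest values. Ensa differed by 0.87 ± 0.14 (adjusted p = 0.00231, edgeR). Ppp1r9b, which encodes spinophilin, the protein that targets protein phosphatase 1 to dendritic spines, was at 206, 209 and 240.4 CPM in the chronic unlesioned and at 131, 121 and 131 CPM in the chronic lesioned libraries, while its acute lesioned libraries were at 218 to 224 CPM. Its difference was -0.74 ± 0.11 (adjusted p = 0.000788), opposite in sign to that of the 3 others.

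**Figure D4:**
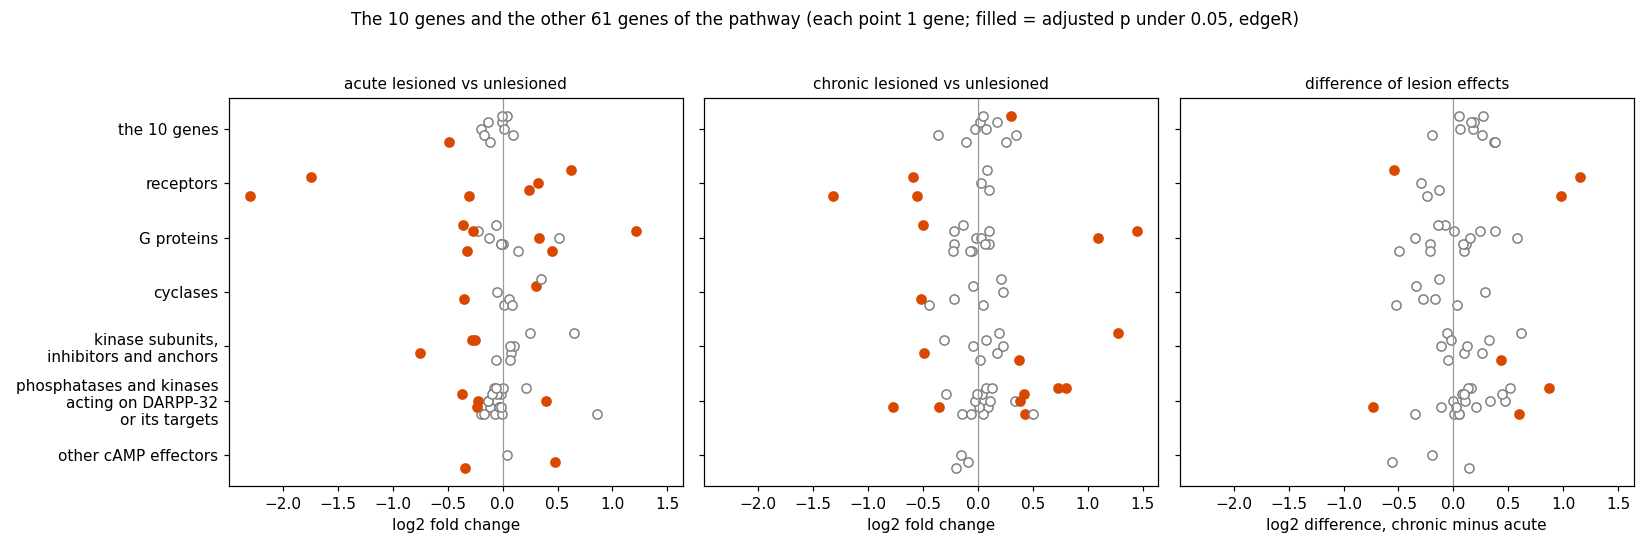
Fitted log2 fold change (x axis) of the 10 genes and of the 61 other genes of the pathway by list (y axis), in the acute and the chronic comparison of the hemispheres and in the difference between them. Filled points have an adjusted p under 0.05, and the 10 genes lie between -0.49 and 0.38 in these panels while receptors reach -2.30.

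The other marker lists were read beside these results. After acute L-DOPA 1 of 7 cortical markers fell, 1 of 5 oligodendrocyte markers, 1 of 4 astrocyte markers and 1 of 5 microglial markers rose, none of the 3 endothelial and 3 cholinergic markers was called, and 1 of 3 choroid plexus markers fell. After chronic L-DOPA 1 of 7 markers shared by spiny neurons fell (Rasd2), 2 of 6 D1 markers rose and 3 fell, 1 of 5 D2 markers rose and 1 fell, 1 of 4 astrocyte markers rose, 1 of 3 cholinergic and 1 of 2 tested choroid plexus markers fell, and none of 5 oligodendrocyte, 5 microglial, 3 endothelial and 6 tested cortical markers was called. That choroid plexus marker was Ttr, whose hemispheres overlapped, and chronic unlesioned replicate 2 held the choroid plexus markers at 464 CPM in sum. For the difference between lesion effects none of 7 markers shared by spiny neurons was called, with 6 positive values and a median of 0.26. There 5 of 6 D1 markers were called higher, 1 of 5 D2 and 1 of 3 cholinergic markers lower, and no marker of the other lists was called. The sum of the cortical markers was lower on the lesioned side in its median, 2.87 against 14.4 CPM after acute and 2.14 against 25.0 CPM after chronic L-DOPA, and the groups overlapped under both treatments (2.62 to 16.8 against 13.5 to 31.3 CPM, and 2.09 to 23.2 against 5.55 to 42.3 CPM). Of these markers 6 of 7 had negative log2 fold changes after acute L-DOPA (median -1.35, 5 at an unadjusted p under 0.05) and 6 of 6 tested ones after chronic L-DOPA (median -1.58, 1 at an unadjusted p under 0.05). The part of these shifts in the 10 genes was not tested.

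**Figure D5:**
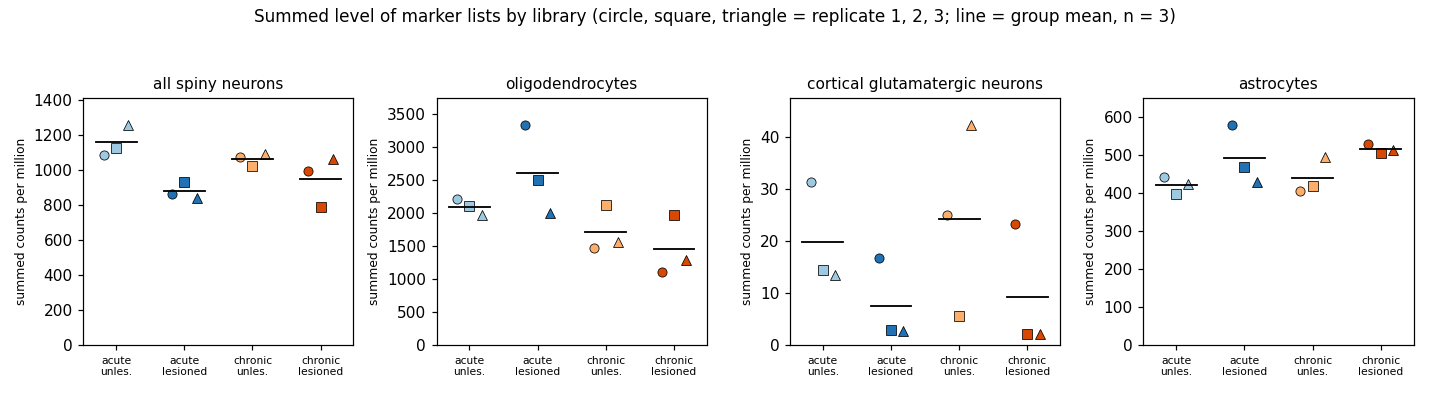
Summed level of marker lists (y axis, CPM from 0) in each library by group, with the group mean as a line. Markers shared by spiny neurons are lower in all 3 acute lesioned libraries (836 to 931 CPM) than in the acute unlesioned ones (1087 to 1256 CPM), and oligodendrocyte markers vary from 1103 to 3333 CPM.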

How the data were processed

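RNA sequencing (TruSeq RNA kit) of 12 libraries, 3 in each of 4 groups, was used. The authors deposited counts of reads per transcript, made against mm9 with Genomatix annotation, and a normalized expression signal, which was not used here. The submitters' processing notes name DESeq. 3 deposited tables of the authors' own comparisons (log2 fold changes with raw and adjusted p-values) and their 36 per-sample columns were not used. Transcripts that name no gene (0.0485% of counts) were left out.

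Groups came from the labels. The labels speak of 12 mice, while the study's methods use the opposite hemisphere as control, and which libraries share a mouse is not given in the sources used here, so p-values measure the spread between these libraries. Same-numbered libraries of the hemispheres deviated together under both treatments, with every correlation over 0.1, so a fit with the replicate number as a block stands beside the main one.

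Counts were filtered (filterByExpr), scaled by TMM and tested in edgeR 4.0.16 (R 4.3.3) by quasi-likelihood tests, with Benjamini-Hochberg adjustment over all transcripts and a threshold of 0.05. The difference between lesion effects is an interaction over 12 libraries. The fits were tested on simulated data. CPM are counts scaled by the TMM-adjusted library total. Depth was 87695043 to 173116525 counts per library, and 3 counts, the limit that a count of 0 allows, came to 0.0171 to 0.0347 CPM. Alternatives were DESeq2 1.42.0, no filter, a fit over all 12 libraries, sums over transcripts, the replicate block and leaving out libraries. The pairs of replicates left out together and the transcripts of Ptpn5 and Arpp21 were added after seeing the data.

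The 10 genes, the pathway lists and the marker lists were chosen with earlier results of these data known. Pathway genes were named by rule: in each comparison, up to 4 called genes with the largest absolute log2 fold change. Others are said to have been picked after their values were seen. The 5 genes most like Ppp1r1b were taken by Pearson correlation.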

Additional observations from a re-analysis of the deposited data

Results flagged for a closer look

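For 7 of the 61 genes of the pathway, beside 5.1% of all genes and 13.6% of the 1303 genes at the level of the 10, the lesion effect differed between acute and chronic L-DOPA by a test of the difference itself (edgeR, interaction over 12 libraries, adjusted p under 0.05). The values are log2 differences, chronic minus acute. Drd1a differed by 0.98 (adjusted p = 0.00507) and Chrm4 by 1.15 (adjusted p = 0.00103) and both were lower in the lesioned striatum under each treatment and less so after chronic L-DOPA. Prkacb differed by 0.43 (adjusted p = 0.0251), Cdk5r1, the activator of Cdk5, by 0.60 (adjusted p = 0.00539) and Ensa by 0.87 (adjusted p = 0.00231). Ppp1r9b differed by -0.74 (adjusted p = 0.000788) and Gpr6, an orphan receptor of D2 neurons, by -0.54 (adjusted p = 0.0183). None of the 10 genes of the report was called in this test by edgeR without the replicate block. With the block Gnal, Prkar1b and Prkar2b were called, beside 13.4% of all genes and 30.6% of the 1303.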

How the results depend on the processing

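For the 10 genes, 700 values stayed on their side of the threshold under the alternatives, 11 lost the call and 29 gained it. No value called in either fit changed sign. Among values called in neither, 25 changed sign, in 13 results whose main log2 values lay within 0.07 of 0. With the replicate block, which pairs the same-numbered libraries of the hemispheres, the number of the 10 genes called went from 1 to 4 after chronic L-DOPA and from 0 to 3 for the difference of lesion effects, and that of the 61 pathway genes called for this difference from 7 to 19. No other count of calls between the hemispheres moved by over 1.5 times under the block. Between the treatments the correlations of same-numbered libraries ran from -0.136 to 0.231. They were not all over 0.1, so the numbers were not taken as pairs there. After chronic L-DOPA the count of the 10 genes was 3 in DESeq2, 4 in the fit over all 12 libraries, 2 without a filter and 3 with replicates 1 and 3 of both chronic groups. For the difference it was 2 in DESeq2 and 2 with replicates 1 and 3 of both chronic groups. In the unlesioned striatum it was 1 in DESeq2. The pathway count after acute L-DOPA (23) was 13 in the fit over all 12 libraries and 15 with replicates 2 and 3 of both acute groups. In the unlesioned striatum (3) it was 5 in DESeq2, 1 in the fit over all 12 libraries, 6 without a filter and 0 for sums over transcripts. For the difference (7) it was 11 in DESeq2 and 13 with replicates 1 and 3 of both chronic groups. Where no share of all genes is stated above for an alternative, its count cannot be set against a background. The cause was not tested.

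Leaving out one library at a time, the count of the 10 genes ran from 0 to 3 after chronic L-DOPA, from 1 to 6 in the lesioned striatum between treatments (6 without chronic lesioned replicate 2) and from 0 to 2 for the difference. The pathway count ran from 13 to 18 after acute L-DOPA (13 without acute unlesioned replicate 2), from 11 to 18 after chronic L-DOPA, from 13 to 34 in the lesioned striatum (13 without chronic lesioned replicate 1), from 0 to 11 in the unlesioned striatum (11 without chronic unlesioned replicate 2, the library with choroid plexus RNA) and from 5 to 14 for the difference (14 without chronic lesioned replicate 2). For fits with a library left out, the share of all genes called is given above only for the difference without chronic lesioned replicate 2. The other counts cannot be set against a background. Each of the 10 genes had 1969 counts or more in each library, and each group has 3 libraries.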
